A study of Mus musculus with 9 samples.

Results

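The nuclear genes of succinate dehydrogenase (respiratory complex II) and its assembly factors were examined in the colon of wild-type mice. The members were *Sdha*, *Sdhb*, *Sdhc* and *Sdhd*, which encode the subunits of the enzyme, and *Sdhaf1*, *Sdhaf2* and *Sdhaf4*, which encode assembly factors. They were found by symbol through their Ensembl identifiers, and all 7 of them were among the 22262 genes detected. The set was chosen by the level of *Sdhd* in the comparison of the housing groups, which was already known, so the differences of the 7 genes between the groups are given as a description without a test.

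Upper colon tissue was taken from female wild-type C57BL/6N mice aged 12 months, of which 4 had been kept in a standard environment (WT_SE, mice 1, 2, 3 and 5) and 5 in an enriched environment (WT_EE, mice 1 to 5). The enriched cages were larger, held more females together and offered running wheels, tunnels and changing objects from weaning on, so that running, company and surroundings cannot be told apart, and mice of a group may share a cage. No gene was altered in either group, and the question was which transcripts of the colon differ with it. The tissue was a piece of the whole bowel wall, and in such bulk tissue fewer cells of a type and less RNA per cell cannot be told apart. Each library counted 3′ ends of polyadenylated RNA with unique molecular identifiers, so that a count stands for a distinct identifier, taken here as a molecule. Gene levels can thus be compared without division by transcript length. How well the 3′ end of each gene was captured and mapped was not measured. An order of genes is therefore an order of counted levels, and a test over mice shows only whether it repeats.

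Succinate dehydrogenase sits in the inner mitochondrial membrane and takes part in both the citric acid cycle and the respiratory chain: it oxidises succinate to fumarate and passes the electrons to ubiquinone. SDHA carries the flavin and the succinate site, SDHB carries the iron-sulfur clusters, and SDHC and SDHD are the membrane anchors that hold the heme and form the ubiquinone site. SDHAF2 helps to attach the flavin to SDHA, SDHAF4 binds the flavin-loaded SDHA before SDHB joins it, and SDHAF1, together with SDHAF3, aids the maturation of SDHB. Colon epithelium and muscle both use this enzyme for energy, and loss of a subunit is known to let succinate accumulate.

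*Sdhd* (ENSMUSG00000000171) lies on the minus strand of chr9:50596357-50603812 (GRCm38, GENCODE), and it faces *Timm8b*, a gene of the mitochondrial protein import machinery, across a shared promoter. In RefSeq the start sites of this pair were separated by 51 bases, and their windows from 250 bases before to 50 bases after the start overlapped by 151 bases. The windows of *Sdhd*, *Sdha* and *Sdhb* are shown because they hold the sequence in front of the subunit gene that set the choice and in front of the subunits it is compared with. RefSeq (GRCm38.p6) gave such a window for 6 of the 7 members. Capitals mark 2 motifs searched on both strands, the core of the NRF1 site and the ETS core CCGGAAG that GABP can bind. The NRF1 core, whose sixth base was left free, matched as GCGCACGCGC in *Sdhd*.
Sdhd, chr9:50603800-50604099, minus strand: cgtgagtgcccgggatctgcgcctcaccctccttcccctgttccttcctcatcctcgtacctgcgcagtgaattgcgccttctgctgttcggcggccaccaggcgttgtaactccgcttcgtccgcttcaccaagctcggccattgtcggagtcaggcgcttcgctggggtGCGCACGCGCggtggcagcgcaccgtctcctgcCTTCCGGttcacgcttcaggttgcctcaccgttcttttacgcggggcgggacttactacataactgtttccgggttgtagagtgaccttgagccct
Sdha, chr13:74350191-74350490, minus strand: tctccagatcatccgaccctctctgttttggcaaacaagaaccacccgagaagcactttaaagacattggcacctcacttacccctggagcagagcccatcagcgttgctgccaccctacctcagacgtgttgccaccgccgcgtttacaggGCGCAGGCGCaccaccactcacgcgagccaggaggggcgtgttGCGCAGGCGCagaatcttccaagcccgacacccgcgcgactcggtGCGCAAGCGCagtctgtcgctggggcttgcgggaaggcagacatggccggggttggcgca
Sdhb, chr4:140961021-140961320, plus strand: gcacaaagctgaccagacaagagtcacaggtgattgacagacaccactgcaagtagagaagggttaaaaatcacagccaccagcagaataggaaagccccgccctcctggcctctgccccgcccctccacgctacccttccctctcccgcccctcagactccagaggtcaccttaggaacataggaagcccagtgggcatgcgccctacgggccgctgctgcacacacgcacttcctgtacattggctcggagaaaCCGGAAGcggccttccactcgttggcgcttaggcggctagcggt

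The *Sdhd* window held 1 NRF1 motif, starting 79 bases before the start site, and 1 ETS motif, starting 46 bases before it. Both lie in the stretch shared with *Timm8b*. *Sdha* held 3 NRF1 motifs and no ETS motif, whereas *Sdhb* held 1 ETS motif. Among the assembly factors, *Sdhaf4* held 1 NRF1 motif, *Sdhaf1* held 1 ETS motif and *Sdhaf2* held 2. Of 27025 RefSeq promoter windows of this length, 4.78% held the NRF1 motif and 9.12% the ETS motif. The motifs did not overlap each other in the windows shown, and a match describes letters only.

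The libraries held 299062 to 383401 molecules in WT_SE (median 362850.5) and 295535 to 454043 in WT_EE (median 426436). The highest count of any gene was 1177 to 1393 in every library, so the counts may have a ceiling. For the 1671 genes averaging 60 to 120 counts, the range of the abundant subunits, the summed counts rose by 0.696 on the log scale for each unit of log library total, less than in proportion. No correction was made for this, and differences between members in level and share may be understated. Fold changes may be understated too, or shifted toward lower values in WT_EE, where the median total was larger. At an unadjusted p under 0.05 in the edgeR fit, 56 of these 1671 genes were higher and 101 lower in WT_EE. Over all 17441 genes tested, 751 were higher and 583 lower. Values below are counts and normalized levels (CPM, counts scaled to a common library size by TMM). The libraries of WT_SE mice 1 and 3 carry another name ending than the other 7 libraries, and its meaning is not given in the sources used here. All 12 listed epithelial markers had counts, and their summed level was 3712 to 4474 CPM in WT_SE and 3836 to 4905 CPM in WT_EE. These genes mark epithelium but not the region of the bowel, and the sums of regional markers are given below.

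In the colon of WT mice, *Sdha* and *Sdhb* had the highest counted levels of the complex II members. *Sdha*, the flavoprotein gene, had 111, 107, 92 and 102 counts in WT_SE mice 1, 2, 3 and 5, and 105, 83, 102, 87 and 112 in WT_EE mice 1 to 5. *Sdhb*, the iron-sulfur subunit gene, had 93, 97, 98 and 105 counts in WT_SE and 111, 69, 118, 93 and 113 in WT_EE. Their mean levels over the 9 mice were 272 ± 30.6 and 269 ± 29.8 CPM (SD, n = 9), and *Sdha* was above *Sdhb* in 3 of 9 mice. The order of these neighbours was not settled by the data (two-sided exact sign-flip permutation test, p = 0.797, n = 9).

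*Sdhc*, the larger membrane anchor gene, followed with 87, 62, 47 and 74 counts in WT_SE and 87, 58, 83, 60 and 83 in WT_EE. Its mean was 190 ± 19.5 CPM (SD, n = 9). *Sdhb* was above *Sdhc* in 9 of 9 mice, by 1.41-fold on the mean log scale (exact sign-flip permutation test, p = 0.00391, adjusted p = 0.0156 over the 4 pairs tested). This is the smallest p that 9 mice allow.

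*Sdhd*, the partner of *Sdhc* in the membrane, was next at 159 ± 78.1 CPM (SD, n = 9). It had 33, 55, 5 and 36 counts in WT_SE mice 1, 2, 3 and 5, and 101, 73, 76, 67 and 98 counts in WT_EE mice 1 to 5. Thus it was by far lowest in WT_SE mouse 3, and the groups did not overlap, which held for 2.58% of all genes tested. The nearest levels of the groups were those of WT_SE mouse 2 and WT_EE mouse 3. In CPM the values were 86.1, 153, 16.9 and 98.4 in WT_SE and 218, 254, 166, 207 and 227 in WT_EE. *Sdhd* was below *Sdhc* in 5 of 9 mice, namely in all 4 WT_SE mice and in WT_EE mouse 3.

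The assembly factor genes had lower counted levels. *Sdhaf2* had 30, 9, 14 and 20 counts in WT_SE and 29, 14, 25, 14 and 25 in WT_EE, with a mean of 52.5 ± 14.5 CPM (SD, n = 9). *Sdhaf4* had 16, 13, 19 and 12 counts in WT_SE and 26, 7, 27, 14 and 23 in WT_EE, with a mean of 45.7 ± 13.3 CPM. The difference between these neighbours was within the spread over mice (exact sign-flip permutation test, p = 0.297, adjusted p = 0.396, n = 9).

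*Sdhaf1* was the lowest member, with 7, 10, 3 and 12 counts in WT_SE and 14, 4, 7, 5 and 7 in WT_EE. Its mean was 20.02 ± 8.09 CPM (SD, n = 9), and *Sdhaf4* was above it in 8 of 9 mice, by 2.35-fold (exact sign-flip permutation test, p = 0.00781, adjusted p = 0.0156). *Sdhaf3*, the assembly factor outside the chosen set, was in the same range with 3 to 9 counts per library. At this depth a library with 3 counts or fewer is at the limit that a count of 0 allows, which *Sdhaf1* reached in WT_SE mouse 3. These limits and the intervals below cover counting error only.

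**Figure D1:**
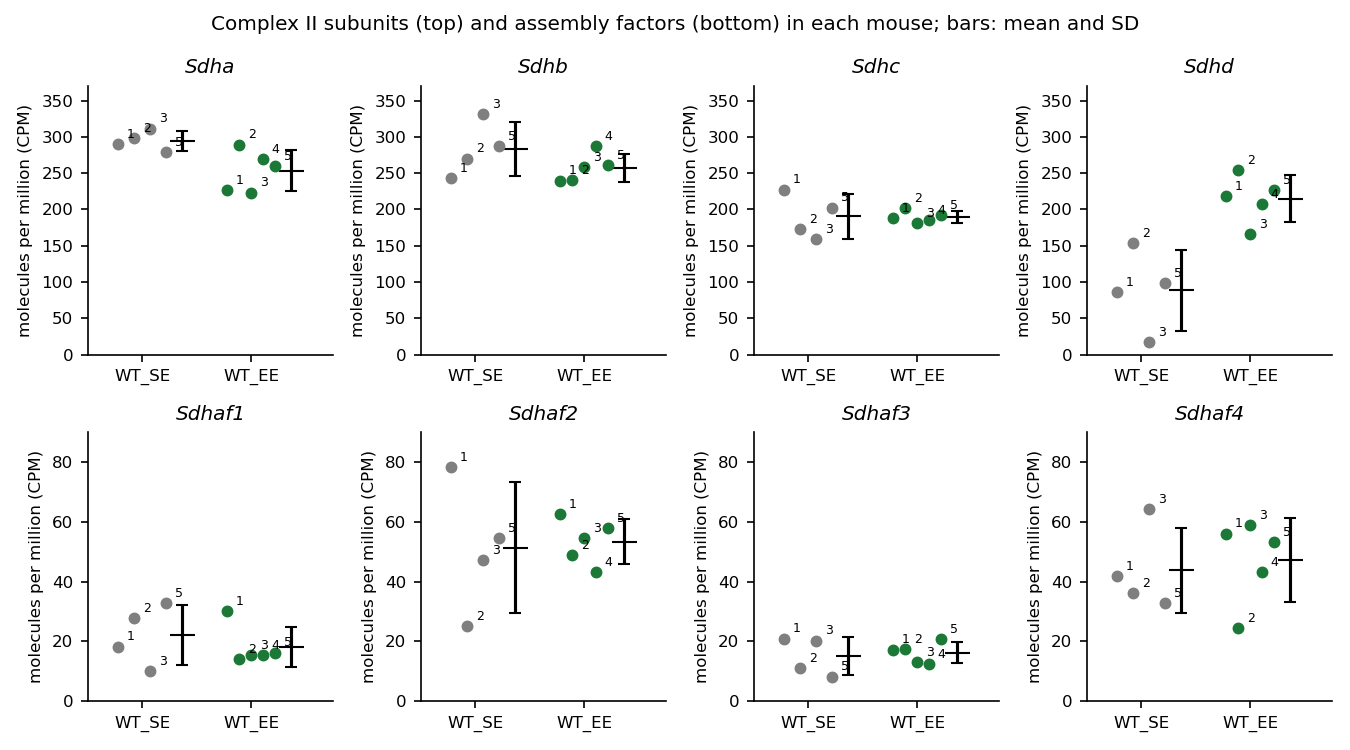
Normalized level (CPM, y axis) of the 4 subunit genes (top) and of the 3 chosen assembly factors and Sdhaf3 (bottom) in each WT_SE mouse (grey) and WT_EE mouse (green), numbered by mouse, with the group mean and SD as bars. Sdhd is the panel in which the groups do not overlap, and WT_SE mouse 3 has its lowest value, 16.9 CPM.

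Compared with the standard environment, *Sdhd* was 2.34-fold higher in WT_EE, a log2 fold change of 1.23 ± 0.23 (SE) in the edgeR fit. The SE of each edgeR fold change was derived from the F statistic of its test. For *Sdhd* the SE was larger in other fits, 0.46 with DESeq2 and 0.31 with limma-voom. The group means of *Sdhd* were 88.7 ± 56.0 CPM (SD, n = 4) and 215 ± 32.2 CPM (SD, n = 5). This difference is the value by which the set was chosen. The other members lay much closer to no difference, and their groups overlapped.

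For *Sdha* the log2 fold change was -0.22 ± 0.13 (SE), with means of 294 ± 13.6 and 253 ± 28.3 CPM in WT_SE and WT_EE. For *Sdhb* it was -0.13 ± 0.14, and for *Sdhc* it was -0.01 ± 0.14. The 1671 genes in the same range of counts had a median of -0.06. *Sdhc* was also the subunit gene with nearly equal means, 190.2 ± 30.5 and 189.8 ± 7.91 CPM. The assembly factors had log2 fold changes of 0.06 ± 0.26 for *Sdhaf2*, 0.18 ± 0.28 for *Sdhaf4* and -0.27 ± 0.39 for *Sdhaf1*.

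In the edgeR fit over all 17441 genes that passed the filter, among them all 7 members, 7.65% had an unadjusted p under 0.05, 4.31% with higher and 3.34% with lower counts in WT_EE. Of the members this count was 1, *Sdhd*. It was also among the 0.0401% of genes with an adjusted p under 0.05, a call that was lost in 8 of 20 alternatives, among them those without WT_SE mouse 1, WT_SE mouse 3 or WT_EE mouse 5. Further, 1 of the 7 members against 2.58% of all genes had groups that did not overlap. Since the choice rests on this comparison, nothing is read from these counts.

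The size of the *Sdhd* difference depended on single libraries. Without WT_SE mouse 3 the log2 fold change was 0.93, and without WT_SE mouse 2 it was 1.60. With the name ending of the libraries as a covariate it was 0.76, and within the 7 libraries of the common ending, which leave WT_SE mice 2 and 5, it was 0.77. *Sdhd* was higher in WT_EE in each of the 20 alternatives. With groups that do not overlap, leaving out a mouse could hardly change that direction. Adding the pseudogene counts repeated the same fit, and the set was chosen by this difference, so nothing is read from the direction.

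**Figure D2:**
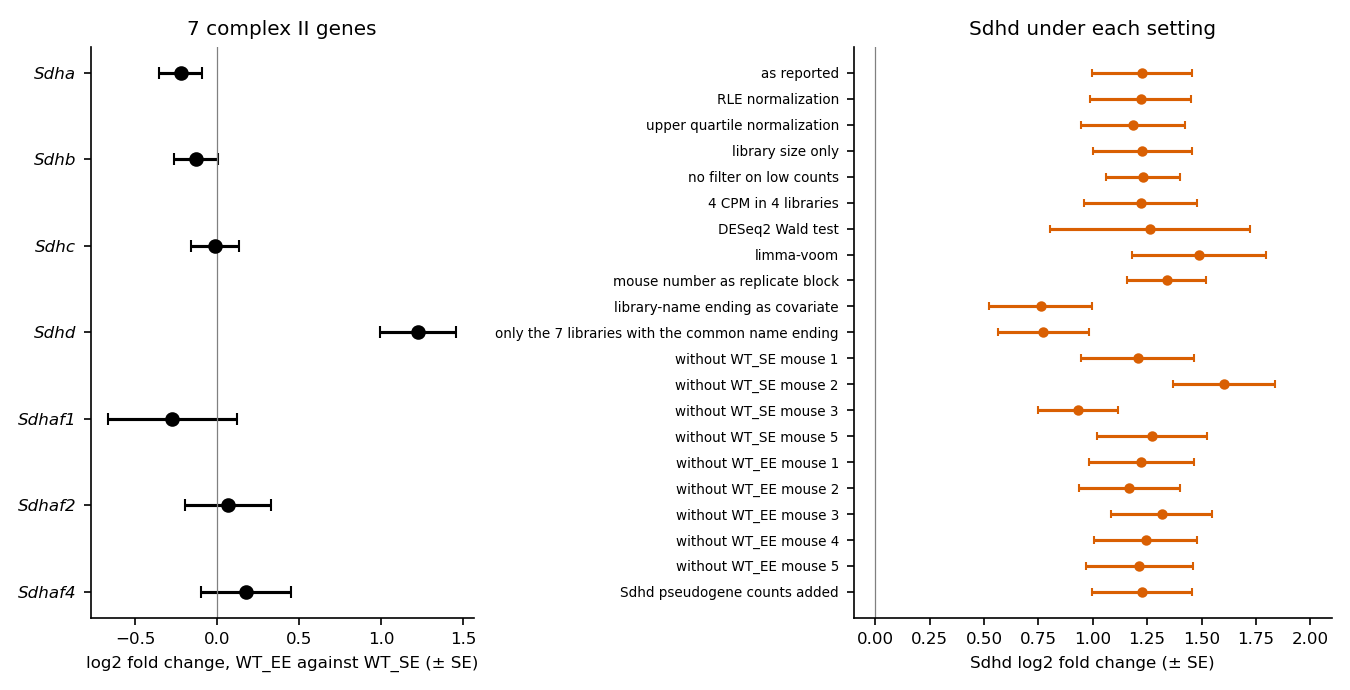
Left, log2 fold change of WT_EE against WT_SE with its SE for the 7 complex II genes. Right, the same quantity for Sdhd under each setting. The points of Sdhd lie between 0.76 and 1.60, while the other 6 genes lie between -0.27 and 0.18.

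The balance of the subunits within a mouse can be read without a normalization. *Sdhd* made up 10.2%, 17.1%, 2.07% and 11.4% of the subunit molecules in WT_SE mice 1, 2, 3 and 5, and 25.0%, 25.8%, 20.1%, 21.8% and 24.1% in WT_EE mice 1 to 5. The exact Clopper-Pearson 95% intervals ran from 0.674% to 4.76% in WT_SE mouse 3, where 5 of 242 molecules were *Sdhd*, and from 13.2% to 21.7% in WT_SE mouse 2, where 55 of 321 were. In WT_EE mouse 3, the lowest of that group, the interval was 16.1% to 24.4%, which overlaps that of WT_SE mouse 2. The group means were 10.2% ± 6.21 (SD, n = 4) and 23.4% ± 2.37 (SD, n = 5).

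The share of *Sdhc* was similar in both groups, 22.2% ± 3.61 (SD, n = 4) in WT_SE and 20.8% ± 0.942 (SD, n = 5) in WT_EE. *Sdha* took 34.4% ± 2.53 of the subunit molecules in WT_SE and 27.6% ± 1.28 in WT_EE, and *Sdhb* 33.1% ± 5.24 and 28.2% ± 2.66. Shares within a mouse sum to a fixed total, so a larger share of *Sdhd* lowers those of its partners. For each *Sdhc* molecule there were 0.106 to 0.887 *Sdhd* molecules in WT_SE and 0.916 to 1.26 in WT_EE.

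**Figure D3:**
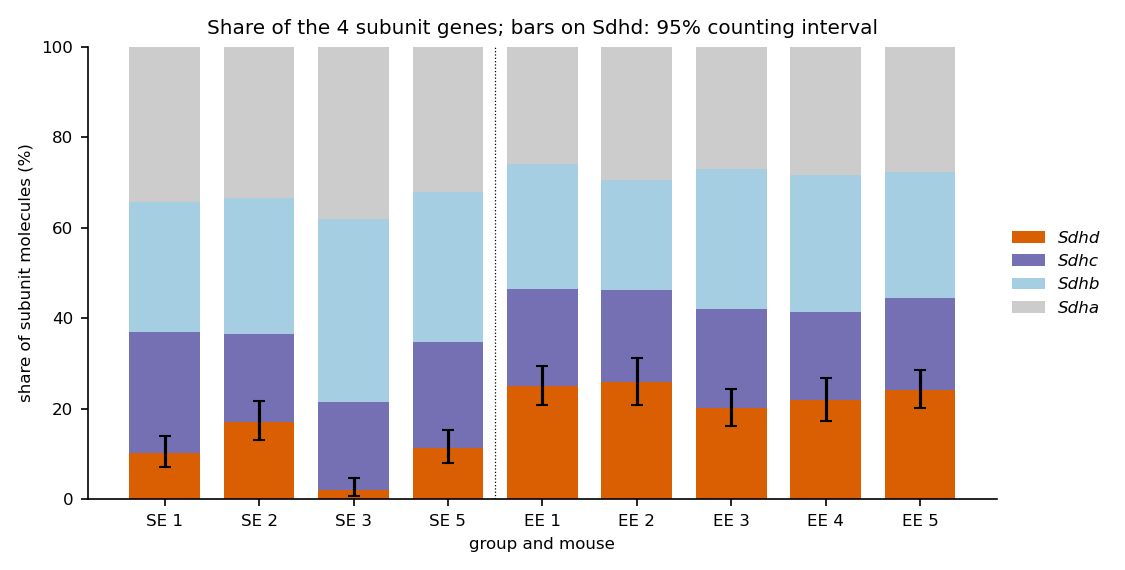
Share of the molecules of the 4 subunit genes (y axis, %) taken by each gene in each mouse, with the exact 95% interval on Sdhd. Sdhd takes 2.07% to 17.1% in the WT_SE mice and 20.1% to 25.8% in the WT_EE mice.

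*Sdhd* varied more among the WT_SE mice than its partners did. Its chi-square per degree of freedom against equal shares of the library totals was 11.3 within WT_SE, a value that 86 of 5812 genes with a mean of at least 20 counts exceeded (1.48%). Within WT_EE it was 1.60, which 38.7% of genes exceeded. The median of all these genes was 1.20 in WT_SE and 1.26 in WT_EE. The WT_SE counts of *Sdhd*, among them the 5 counts of WT_SE mouse 3, are part of the comparison that chose the set. Nothing is therefore read from its place among all genes.

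The partners spread less. Within WT_SE the chi-square per degree of freedom was 0.213 for *Sdha*, 1.49 for *Sdhb*, 1.70 for *Sdhc* and 3.40 for *Sdhaf2*. *Sdhaf2* ranged from 25.1 CPM in WT_SE mouse 2 to 78.3 CPM in WT_SE mouse 1. The gene-wise biological coefficient of variation was 20.3% for *Sdhd*, beside 15.1% common to all genes and 10.4% to 10.7% for the other 3 subunit genes.

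Genes that share sequence or position with the members were counted next. The annotated pseudogene of *Sdhd*, Gm44159 (chr6:140132067-140132508, plus strand, GRCm38), matched 250 bases of the *Sdhd* transcript with 73.6% identity. The match covers transcript bases 99 to 346 of 1231, away from the 3′ end that these libraries sample. It had 0 counts in all 9 libraries, so adding it left the *Sdhd* counts as they were. *Sdhaf1* overlaps E130208F15Rik on the other strand over 1733 bases, and that gene had 0 to 2 counts per library.

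*Timm8b*, which shares the promoter of *Sdhd*, had 44, 26, 26 and 47 counts in WT_SE and 44, 7, 48, 21 and 44 in WT_EE. It was low in WT_EE mice 2 and 4, in which *Sdhd* was not. Its log2 fold change was -0.32 ± 0.24 (SE, 95% interval -0.79 to 0.16), which did not pass the edgeR test (unadjusted p = 0.199, adjusted p = 0.800). The exact permutation test over mice gave p = 0.310 (two-sided).

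*Nkapd1*, whose end lies 1427 bases beyond the *Sdhd* start on the same strand, had 28, 37, 23 and 32 counts in WT_SE and 50, 23, 39, 36 and 43 in WT_EE. Its groups overlapped, and its log2 fold change was 0.18 ± 0.19 (SE; edgeR, unadjusted p = 0.346). In WT_SE mouse 3 it was at 77.8 CPM and *Timm8b* at 87.9 CPM, where *Sdhd* was at 16.9 CPM. *Ccdc127*, which starts 28 bases from *Sdha* in the opposite direction, had a log2 fold change of -0.09 ± 0.25. *Cpsf7*, which overlaps the start of *Sdhaf2* by 877 bases on the other strand, had -0.10 ± 0.21, and neither passed the test (edgeR, unadjusted p = 0.717 and 0.655).

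**Figure D4:**
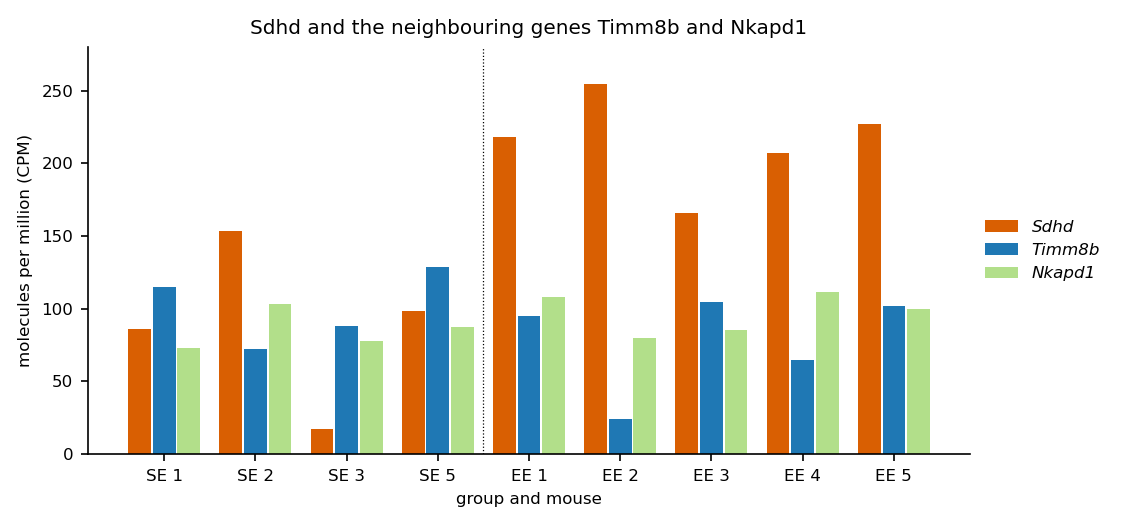
Normalized level (CPM, bars from 0) of Sdhd and of its neighbours Timm8b and Nkapd1 in each mouse. Timm8b, which shares the Sdhd promoter, is above Sdhd in WT_SE mice 1, 3 and 5 and below it in WT_SE mouse 2 and all 5 WT_EE mice.

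The genes of the pathway around complex II were then taken from lists by function. Of 139 listed genes tested, 3 rose and 6 fell in WT_EE at an unadjusted p under 0.05 (edgeR), which is 6.47% beside 7.65% of all genes. None passed after adjustment. The median log2 fold change over the 139 genes was -0.10, beside 0.01 over all genes tested. Over the 1671 genes averaging 60 to 120 counts, a range that some of the listed genes share, the median was -0.06. Of those 1671 genes 9.40% had an unadjusted p under 0.05 (edgeR).

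In the citric acid cycle, 1 of 14 genes rose and 1 fell, with a median log2 fold change of -0.06. *Cs*, citrate synthase, had 91, 100, 49 and 99 counts in WT_SE and 121, 103, 120, 104 and 125 in WT_EE, a log2 fold change of 0.31 ± 0.15 (SE; edgeR, unadjusted p = 0.0481, adjusted p = 0.648). Its lowest value, like that of *Sdhd*, was in WT_SE mouse 3, its groups overlapped in CPM, and without that mouse its log2 fold change was 0.19 (edgeR, unadjusted p = 0.230). With the name ending of the libraries as a covariate it was 0.11 (edgeR, unadjusted p = 0.547).

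*Suclg1*, a subunit of the ligase that makes succinate from succinyl-CoA, had 118, 93, 106 and 103 counts in WT_SE and 113, 68, 108, 70 and 109 in WT_EE. In CPM the groups did not overlap, which held for 2.58% of all genes tested. The means were 302 ± 42.8 (SD, n = 4) and 237 ± 13.2 (SD, n = 5), and the log2 fold change of *Suclg1* was -0.34 ± 0.14 (edgeR, unadjusted p = 0.0166, adjusted p = 0.486). Without WT_SE mouse 3 it was -0.24 (edgeR, unadjusted p = 0.100), and with the name ending as a covariate -0.19 (edgeR, unadjusted p = 0.289). *Fh1*, fumarase, which acts on the product of complex II, had a log2 fold change of 0.19 ± 0.17 and did not pass the test.

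Of the 9 tested genes that supply, carry or sense succinate, 1 rose and 0 fell, with a median of 0.02. *Egln3*, an oxygen-sensing prolyl hydroxylase that gives off succinate and is inhibited by it, had 22, 24, 12 and 26 counts in WT_SE and 32, 37, 47, 43 and 44 in WT_EE. Its groups overlapped in CPM, at 59.0 ± 13.5 (SD, n = 4) and 107 ± 25.7 CPM (SD, n = 5), a log2 fold change of 0.82 ± 0.22 (edgeR, unadjusted p = 0.000734, adjusted p = 0.187). Its relative *Egln1* had a log2 fold change of 0.13 ± 0.21, and *Slc25a10*, the dicarboxylate carrier, had -0.04 ± 0.22.

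The iron-sulfur cluster and flavin genes, which build the cofactors of SDHB and SDHA, numbered 19, of which 1 rose and 1 fell (median -0.17). *Iscu*, the scaffold on which clusters are assembled, had 4, 4, 2 and 3 counts in WT_SE and 7, 4, 9, 12 and 13 in WT_EE. The groups did not overlap in CPM (9.14 ± 2.02 and 23.2 ± 10.1, SD), and the log2 fold change was 1.29 ± 0.46 (edgeR, unadjusted p = 0.00759, adjusted p = 0.403), on few molecules. In counts the groups met at 4, in WT_SE mice 1 and 2 and in WT_EE mouse 2, whose library total was the lowest. Their separation thus rests on the scaling to library size. *Nfu1*, a late carrier of clusters to targets such as SDHB, had 39, 35, 34 and 35 counts in WT_SE and 42, 17, 32, 27 and 34 in WT_EE, a log2 fold change of -0.40 ± 0.19 (edgeR, unadjusted p = 0.0417, adjusted p = 0.627). Without WT_SE mouse 3 the *Nfu1* value was -0.34 (edgeR, unadjusted p = 0.106), and with the name ending as a covariate -0.32 (edgeR, unadjusted p = 0.188).

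Genes that make or use ubiquinone, the electron acceptor of complex II, were counted as well. In ubiquinone synthesis 0 of 13 genes rose and 1 fell (median 0.04): *Coq8a*, an atypical kinase of the pathway, had 7, 8, 9 and 8 counts in WT_SE and 7, 2, 4, 1 and 6 in WT_EE, a log2 fold change of -1.16 ± 0.44 (edgeR, unadjusted p = 0.0121, adjusted p = 0.457). Of the 8 other enzymes that reduce ubiquinone and of the 9 nuclear complex III subunits, which reoxidise it, 0 passed the edgeR test at an unadjusted p under 0.05, with medians of -0.11 and -0.11. The complex III genes kept within -0.22 and 0.005.

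Complex I, the other entry of electrons into the chain, had 0 of 36 nuclear subunit genes higher and 2 lower (median -0.09). *Ndufc2* had 106, 72, 68 and 85 counts in WT_SE and 69, 54, 76, 44 and 80 in WT_EE, a log2 fold change of -0.51 ± 0.15 (edgeR, unadjusted p = 0.00122, adjusted p = 0.206). *Ndufa12* had 80, 60, 58 and 85 counts in WT_SE and 72, 37, 65, 38 and 71 in WT_EE, a log2 fold change of -0.49 ± 0.15 (edgeR, unadjusted p = 0.0024, adjusted p = 0.269). For both genes the groups did not overlap in CPM, as for *Suclg1*, *Iscu*, *Nfu1* and *Coq8a* above, beside 2.58% of all genes tested. All of them were named for an unadjusted p under 0.05, which makes such separation likely, so nothing is read from it.

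Among 12 regulators of mitochondrial biogenesis, 0 rose and 1 fell (median -0.18). *Ppargc1a*, a coactivator that drives this programme, had 36, 24, 40 and 30 counts in WT_SE and 24, 20, 39, 18 and 31 in WT_EE, a log2 fold change of -0.48 ± 0.22 (edgeR, unadjusted p = 0.0374, adjusted p = 0.603). Without WT_SE mouse 3 it was -0.26 (edgeR, unadjusted p = 0.265), and with the name ending as a covariate -0.15 (edgeR, unadjusted p = 0.584). *Nrf1* and *Gabpa*, whose products bind the motifs searched above, had log2 fold changes of -0.12 ± 0.23 and -0.21 ± 0.30.

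Of 15 genes used as a measure of mitochondrial mass, such as porins and import receptors, 0 passed the edgeR test at an unadjusted p under 0.05 (median -0.06). The remaining complex II genes, *Sdhaf3*, the chaperone gene *Trap1* and the deacylase genes *Sirt3* and *Sirt5*, had log2 fold changes of 0.12 ± 0.43, -0.19 ± 0.30, 0.64 ± 0.38 and 0.58 ± 0.43, and 0 of 4 passed. *Sirt3* ranged from 7 to 70 counts over the libraries.

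**Figure D5:**
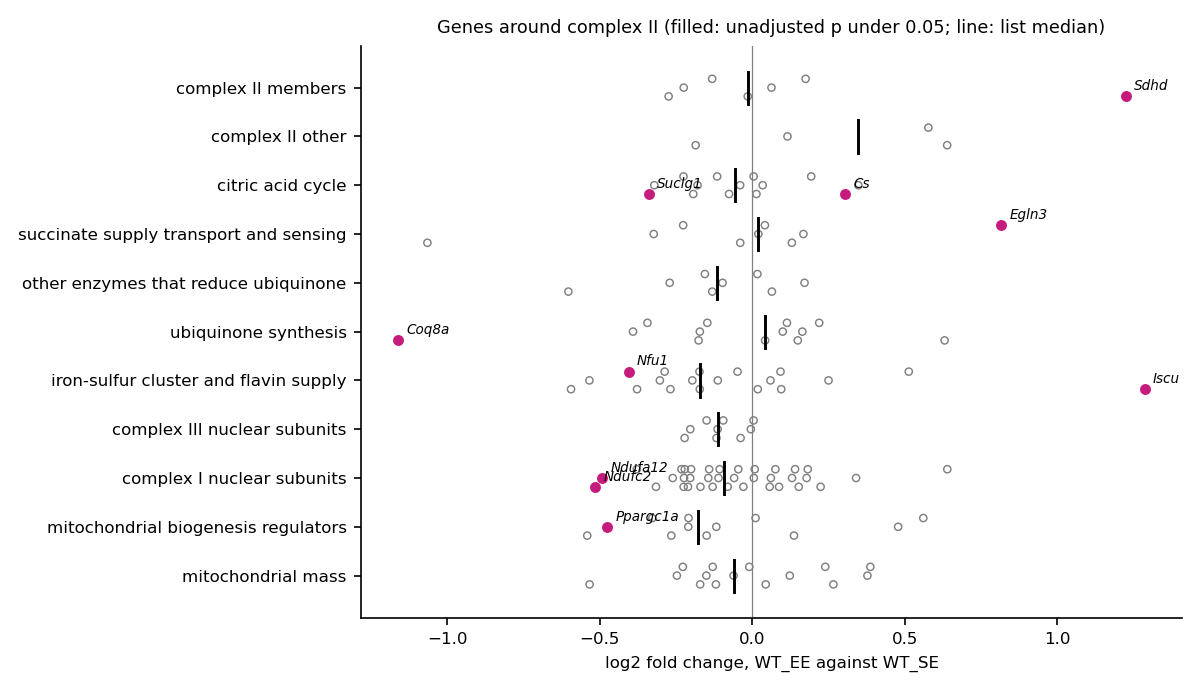
Log2 fold change of WT_EE against WT_SE for each tested gene of the lists around complex II, 1 point per gene, with filled points for an unadjusted p under 0.05 and a line at each list median. The list medians lie between -0.18 and 0.35, and Sdhd stands apart within the complex II row at 1.23.

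The genes whose log2 CPM over the 9 mice was most like that of *Sdhd* were *Cdk10* (Pearson r = 0.97), *Foxp2* (0.96), *Ccn2* (0.95), *Prkx* (0.95) and *Mrps28* (0.95), among 5811 genes with a mean of at least 20 counts. These r values are descriptions over 9 mice in 2 groups that share the same libraries. In each of the 5 genes the lowest value was in WT_SE mouse 3, at 3.4 CPM and 1 count for *Ccn2* and *Mrps28*. *Sdhd* was by far lowest in that mouse, so a choice by likeness to *Sdhd* favours such genes, and nothing is read from it. *Cs* was 32nd in this order (r = 0.91). Of the subunit genes, *Sdhc* had r = 0.38, *Sdha* -0.54 and *Sdhb* -0.73, and *Suclg1* of the citric acid cycle had -0.92.

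Markers of the cell types and bowel regions a sample could hold were summed beside these results. The 4 proximal gut markers summed to 230, 546, 724 and 82.0 CPM in WT_SE mice 1, 2, 3 and 5. In WT_EE mice 1 to 5 the sums were 462, 34.9, 511, 95.9 and 83.3 CPM. The highest sum was in WT_SE mouse 3, the lowest in *Sdhd*. The next highest was in WT_SE mouse 2, which had the highest *Sdhd* level of its group. The 9 smooth muscle markers summed to 2061 to 2671 CPM in WT_SE and 2111 to 3793 CPM in WT_EE, with the highest sums in WT_EE mice 2 and 4. All 9 had a positive log2 fold change (median 0.36, beside 0.01 over all genes tested). Of them 4 (44.4%) passed the edgeR test at an unadjusted p under 0.05, beside 7.65% of all genes tested. In WT_EE mice 1, 3 and 5 the sums of 2191, 2111 and 2603 CPM lay within the WT_SE range, and *Sdhd* was at 218, 166 and 227 CPM in these mice. The 7 adipocyte markers summed to 162 to 989 CPM in WT_SE and 259 to 566 CPM in WT_EE, with a median log2 fold change of -0.87. Of these, 1 of 7 (14.3%) was lower at that limit. No listed marker of these 3 lists was at 0 in all libraries, and their part in the differences of *Sdhd* was not tested.

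The summed ranges of the other lists overlapped between the groups as well. The 4 enteric glia markers (median log2 fold change 0.77) and the 5 endothelium markers (0.36) were all on the higher side in WT_EE. So were the 2 skeletal muscle markers tested (0.42). At an unadjusted p under 0.05 (edgeR), 1 glia and 1 endothelium marker were higher, beside 7.65% of all genes tested in either direction. Of the tested markers of proximal gut (median -0.52) and distal gut (-0.54), 1 of 4 each was lower. Higher were 2 of 12 epithelium and 1 of 4 plasma cell markers, and lower 1 of 7 immune cell markers. Of 7 goblet cell markers 1 was higher and 1 lower. No enteric neuron, fibroblast or skeletal muscle marker passed. The sums in WT_SE and WT_EE were 2322 to 3198 and 2539 to 3798 CPM for goblet cells, 240.1 to 446 and 211 to 432 CPM for enteric neurons, 21.9 to 61.3 and 48.6 to 89.7 CPM for enteric glia, and 958 to 1143 and 916 to 1408 CPM for fibroblasts. They were 118 to 194 and 166 to 250.5 CPM for endothelium, 84.5 to 167 and 64.9 to 149 CPM for immune cells, 379 to 470.1 and 413 to 516 CPM for plasma cells, 13.1 to 27.3 and 12.95 to 43.3 CPM for skeletal muscle, and 141 to 284 and 99.3 to 289 CPM for distal gut. *Cd79a*, *Mzb1*, *Myh4* and *Hoxd12* were the listed markers with no count in any library.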

How the data were processed

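RNA of the upper colon of 9 WT mice was analysed, 4 WT_SE and 5 WT_EE. The authors prepared QuantSeq 3′ mRNA-Seq FWD libraries and deposited molecule counts per gene, as whole numbers without normalization. The submitters' processing notes name fastp 0.20.0, STAR 2.7.0f, featureCounts 1.6.0 from Subread, UMI-tools and GRCm38.p6, without parameters. The strand setting of the counting is not given in the sources used here. The totals, 295535 to 454043 counts per library, limit the precision of genes with few counts. The labels tie no mouse to a cage or litter, and p-values measure the spread between these mice.

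The filter asked for 4 CPM or more in 1 or more libraries, and 17441 genes passed. The fit used edgeR 4.0.16 in R 4.3.3 (TMM, quasi-likelihood F test, environment as the only term), with Benjamini-Hochberg adjustment over every gene tested. Levels of neighbouring members were compared by exact sign-flip permutation over 9 mice, and *Timm8b* between groups by the two-sided exact permutation test over the 126 ways to part the mice, whose smallest p is 0.00794. Likeness was Pearson's r of log2 CPM with a prior count of 2. Intervals of shares are exact binomial intervals (scipy 1.17.1). Symbols came from GENCODE and promoters from RefSeq. BLAST+ 2.17.0 compared annotated *Sdhd* pseudogenes with the transcript. The fit was tested on simulated counts.

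The members and lists were chosen with earlier results of these data known. Named were all members, *Sdhaf3*, annotated pseudogenes, genes overlapping a member or within 2000 bases of it, the 5 genes most like *Sdhd*, and in each pathway list the genes with an unadjusted p under 0.05. The other listed genes given with values (*Fh1*, *Egln1*, *Slc25a10*, *Trap1*, *Sirt3*, *Sirt5*, *Nrf1* and *Gabpa*) were named for their role, after the values were known. Of the genes near members, *Gm16125* had 0 counts, *Cfap126* and *Gm26524* had at most 2 in a library, and some are not reported here. The alternatives were other normalizations, other filters, DESeq2 1.42.0, limma-voom (limma 3.58.1), the mouse number as a replicate block, the ending of the library names as a covariate, only the 7 libraries of the common ending, added pseudogene counts, and each mouse left out. Same-numbered mice did not deviate together (r from -0.02 to 0.15), so the numbers were not taken as pairs. No 2 libraries of a group agreed within sampling noise (chi-square per degree of freedom 1.19 to 2.55).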

Additional observations from a re-analysis of the deposited data

Results flagged for a closer look

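*Sdhaf1* stood apart in WT_EE mouse 1, with 30.2 CPM (14 counts) beside 13.9 to 16.2 CPM in the other WT_EE mice. Its gap to the nearest mouse, divided by the range of the group, was 0.862. The value rests on few molecules. Of 54 groups of values examined in this way, this was 1, and chance gives about 2.7.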

How the results depend on the processing

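The alternatives other than those on library names and left-out mice keep the same 9 mice, and counts of 3 to 30 limit what can be said of the assembly factors. The log2 fold change of *Sdhd* was positive in all 20 alternatives. Its groups do not overlap and the set was chosen by this value, so nothing is read from the sign. The fold change moved by more than its error to 1.49 with limma-voom, 0.76 with the ending of the library names as a covariate and 0.77 within the 7 libraries of the common ending. With a mouse left out it ranged from 0.93 (without WT_SE mouse 3) to 1.60 (without WT_SE mouse 2). The number of members with an unadjusted p under 0.05 rests on the comparison that chose them and supports nothing. It was 2 in place of 1 without WT_EE mouse 2, where *Sdha* was at -0.27. With the mouse number as a replicate block, *Sdhd* was at 1.34 and the number of listed pathway genes rose from 9 to 15, 6 higher and 9 lower. With a mouse left out this number ran from 7 to 16, the highest without WT_SE mouse 2. Over all genes the block gave 70 genes with an adjusted p under 0.05 in place of 7, while 0 remained with DESeq2 (643 at an unadjusted p under 0.05), limma-voom (1357), the ending as a covariate (688), the 7 libraries of the common ending (680), the filter of 4 CPM in 4 libraries (1178) or, in the edgeR fit, without WT_SE mouse 3 (899). Upper quartile normalization lowered the share of higher genes among those with an unadjusted p under 0.05 from 56.3% to 45.0%. Of the named pathway genes, *Egln3*, *Iscu*, *Ndufc2* and *Ndufa12* stayed past that limit in all 19 alternatives run for them, whereas *Cs* missed it in 13, *Nfu1* in 9, *Ppargc1a* in 8, *Suclg1* in 3 and *Coq8a* in 1. The order of levels kept 2 of 4 neighbour pairs apart in all 10 alternatives run for it. The causes of these shifts were not tested.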
